A study of Mus musculus with 6 samples.

Results

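Oxidative phosphorylation is the last step of fuel oxidation in mitochondria. Complex I takes electrons from NADH and complex II takes them from succinate, both pass them through ubiquinone to complex III, and cytochrome c carries them on to complex IV, where oxygen is reduced. The proton gradient that complexes I, III and IV build drives complex V, the ATP synthase. In hepatocytes, which are rich in mitochondria, this pathway supplies the ATP for gluconeogenesis and urea synthesis, and it oxidises what fatty acid breakdown and the citric acid cycle deliver.

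The genes described here encode the nuclear subunits of these complexes. They were chosen by name alone: every probe set with a single gene symbol that starts with *Ndufa*, *Ndufb*, *Ndufc*, *Ndufs*, *Ndufv*, *Uqcr*, *Atp5* or *Cox4* to *Cox8*, or that is *Sdha*, *Sdhb*, *Sdhc*, *Sdhd*, *Cyc1* or *Cycs*. This rule matched 73 symbols on 101 probe sets. *Ndufaf1* and *Ndufaf4*, which encode assembly factors, and *Cox7a2l*, which encodes a factor of respiratory supercomplexes, are no subunits and were set apart. The other 70 genes, of 8251 genes with a probe set of their own, comprised 29 of complex I, 4 of complex II, 8 of complex III, cytochrome c, 14 of complex IV and 14 of complex V. The brightest probe set read each gene. None of the 13 subunits encoded by mitochondrial DNA was measured.

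The arrays compared livers of LIRKO mice with livers of their Flox controls, 3 arrays a group, and the question was what loss of the insulin receptor does to liver transcripts. Both groups carry insulin receptor alleles flanked by loxP sites, and LIRKO mice also carry a Cre recombinase under the albumin promoter, which acts in hepatocytes and leaves the receptor in other liver cells. All mice were male, 2 to 3 months old, fed chow and not fasted, on a mixed genetic background. RNA of 2 to 3 mice was pooled for each array, so that each value is already a mean over animals. Values are log2 intensities as deposited. In bulk liver, fewer cells of a type and less RNA per cell cannot be told apart.

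Facts of the whole array set bear on what follows. The probe set of *Insr*, the deleted gene, read 5.45, 5.22 and 5.38 in Flox and 5.37, 5.99 and 6.06 in LIRKO (log2 fold change 0.46 ± 0.20 SE, adjusted p = 0.245). No source used here says which part of the transcript it covers, so it checks nothing about the deletion, and LIRKO names the arrays so labelled. LIRKO 2 and LIRKO 3 stood apart from LIRKO 1 in how their values depended on brightness. For the 1243 brightest probe sets, 10% of the array, LIRKO 1 had a median difference from the Flox mean of -0.01, LIRKO 2 of -1.09 and LIRKO 3 of -0.89, whereas for the 1243 dimmest these medians were -0.03, 0.23 and 0.15. Of the 70 subunits, 44 lay among those brightest probe sets and 52 in the 2 brightest of 10 such groups. The 6 hepatocyte markers were bright, up to 14.22 for *Alb* in Flox.

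None of the 70 subunits changed between LIRKO and Flox by limma at an adjusted p under 0.05, and the smallest adjusted p was 0.237. Over all 12422 probe sets the test called 7 lower, which is 0.0564%, and 9 higher, which is 0.0725%, and 8 lower and 15 higher with quantile normalization. At an unadjusted p under 0.05, 7 of the 70 subunits were lower and 1 was higher, where the shares over all probe sets were 13.5% lower and 7.43% higher. With quantile normalization applied again these subunits numbered 6 lower and 6 higher, where the shares over all probe sets were 12.1% and 9.48%. With cyclic loess they numbered 3 lower and 8 higher, where the shares were 11.9% and 10.9%. The unequal-variance t-test of the study's methods, after the same adjustment, called 0 subunits as well. On 6 subunits (8.57%) the LIRKO arrays all lay below the Flox arrays and on 1 they all lay above, and over all probe sets these shares were 14.9% and 9.84%. As deposited, the subunits thus had no larger shares than the array as a whole. Most subunits were bright, however, and the shares over all probe sets cover all levels of brightness. A further comparison used probe sets of similar level, whose Flox mean was close to that of a subunit. On 27.7% of these all LIRKO arrays lay below all Flox arrays, against 8.57% of the subunits. This difference was not tested, and no such share was computed at the unadjusted threshold.

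The LIRKO arrays did not move together. On LIRKO 1, 51 of the 70 subunits lay above the Flox mean. On LIRKO 2, 56 lay below it, and on LIRKO 3, 63 lay below it. The median differences over all 70 subunits were 0.12, -0.80 and -0.70 on LIRKO 1, LIRKO 2 and LIRKO 3. These opposed values averaged to a median log2 fold change of -0.43, with a range from -1.54 to 0.79, where the median of all probe sets was 0.01. A total of 43 subunits (61.4%) lay above Flox on LIRKO 1 and below it on both other LIRKO arrays, a pattern found on 15.4% of all probe sets. That share covers all levels of brightness, and none was computed among probe sets of similar level. In the 2 brightest of 10 groups, which held 52 of the subunits, the medians over all probe sets were low on LIRKO 2 and LIRKO 3. These medians were -0.47 and -1.09 on LIRKO 2 and -0.38 and -0.89 on LIRKO 3, and single probe sets could lie above Flox. The differences between LIRKO arrays were not tested.

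**Figure D1:**
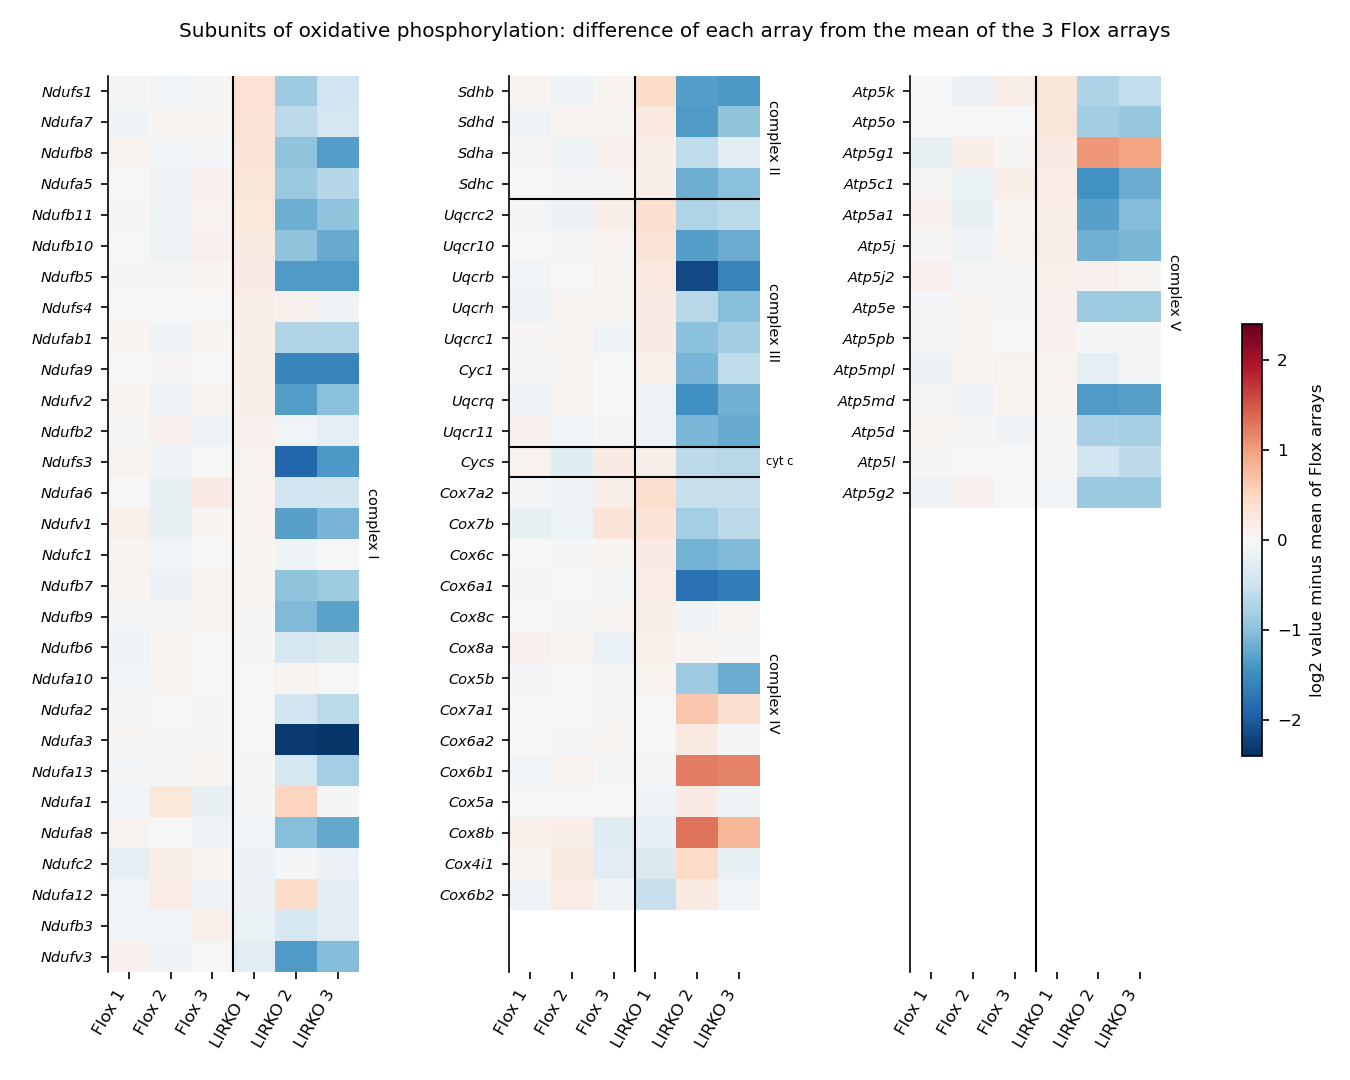
Each row is a subunit and each column an array, and the colour gives the log2 value minus the mean of the 3 Flox arrays (red above, blue below, white at 0), with genes ordered within each complex by their difference on LIRKO 1. LIRKO 1 is pale red for 51 of 70 genes, and LIRKO 2 and LIRKO 3 are blue for 56 and 63 genes.

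These values were set beside those of other probe sets of the same brightness. For each subunit, the median difference of all probe sets with a Flox mean within 0.25 of its own was subtracted. These probe sets of similar level had medians of -0.01, -0.95 and -0.80 on LIRKO 1, LIRKO 2 and LIRKO 3. After subtraction the medians of the subunits on these arrays were 0.13, 0.09 and -0.06, and the median for the mean of the LIRKO arrays was 0.02. Single subunits ranged from -1.12 (*Uqcrb*) to 1.58 (*Cox8b*) on LIRKO 2 and from -1.18 (*Ndufa3*) to 1.23 (*Cox6b1*) on LIRKO 3. By their median the subunits thus lay close to probe sets of similar level on LIRKO 2 and LIRKO 3, and above them on LIRKO 1. The same measure of each Flox array against the other Flox arrays gave -0.04, -0.02 and 0.06. Flox 1, Flox 2 and Flox 3 lay above the mean of the other Flox arrays on 33, 28 and 47 subunits. The count of 51 on LIRKO 1 was thus close to that of Flox 3 and above those of Flox 1 and Flox 2. The median on LIRKO 1 was larger than that on each Flox array. LIRKO 1 was set against the mean of all Flox arrays, and each Flox array against a mean of fewer arrays. On LIRKO 1, 72.9% of the subunits lay above the Flox mean, against 45.6% of all probe sets and 47.7% of those of similar level.

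On LIRKO 1, 38 subunits (54.3%) lay above all 3 Flox arrays and 10 lay below all of them. Over all probe sets 24.7% lay above and 30.9% below, and among probe sets of similar level 28.8% lay above. The brighter subunits differed most. Of the 53 with a Flox level of 8 or more, 43 lay above the Flox mean and 33 above all Flox arrays. The median difference of all 53 from the Flox mean was 0.15. Of the 17 dimmer ones, 8 lay above the Flox mean, with a median of -0.01. LIRKO 1 is a single array of pooled livers, so these values have no replicate error of their own.

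**Figure D2:**
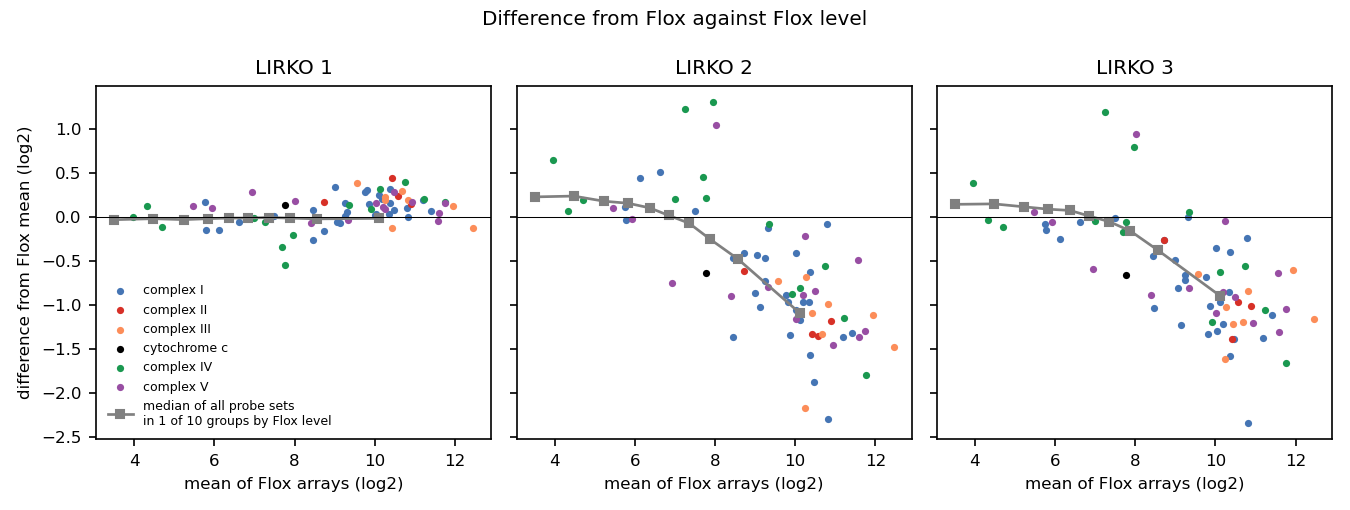
Each point is a subunit, coloured by complex, with its mean over the Flox arrays on the x axis (log2) and its difference from that mean on 1 LIRKO array on the y axis (log2), and grey squares give the median of all probe sets in each of 10 groups by Flox level. Points on LIRKO 1 lie mostly above the grey line (median difference 0.12). On LIRKO 2 and LIRKO 3 the points scatter widely around the grey line, which falls to -1.09 and -0.89 at its bright end.

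Another scaling of the arrays acted on LIRKO 2 and LIRKO 3 and much less on LIRKO 1. With quantile normalization applied again, the medians of the subunits were 0.11, -0.23 and -0.24 on LIRKO 1, LIRKO 2 and LIRKO 3. With cyclic loess they were 0.11, -0.03 and -0.13, and the median log2 fold change was -0.02. On LIRKO 1, 51 subunits lay above the Flox mean under both scalings, and 50 did with each array centred on its median. Without LIRKO 1 the count of called subunits went from 0 to 54, of which 50 (71.4%) were lower and 4 were higher. That fit called 26.7% of all probe sets lower and 22.4% higher. These shares cover all levels of brightness, and none was computed among probe sets of similar level. The brightest 10% of probe sets, which held 44 of the subunits, had medians of -1.09 on LIRKO 2 and -0.89 on LIRKO 3. Without LIRKO 1 the median of the subunits after subtraction of the similar level was 0.009. The larger share of lower subunits is thus not shown to be particular to them.

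Promoters of the subunits were searched for letters that regulators of these genes read. The RefSeq table of GRCm38.p6 held 61 promoters for 56 of the 70 genes, each from 250 bases before to 50 bases after a transcript start. They were searched on both strands for GCGCATGC, read by NRF1, for CCGGAAGT, read by GABPA and other ETS factors, for AAGATGGC, read by YY1, and for AAGGTCA, read by ERR alpha. All are regulators known for genes of the respiratory chain. The letters of NRF1 were in 10 of the 61 promoters (16.4%) and in 2.71% of all 32851 promoters, and those of YY1 in 8 (13.1%) and in 2.75%. The letters of GABPA were in 4 (6.56%) against 3.89%, and those of ERR alpha in 5 (8.20%) against 4.72%. In all, 24 of the 56 genes held at least 1 of the 4 and the others held none, and the shares were not tested. No search allowed mismatches, the same stretch can match NRF1 on both strands, and a match is not a measured site. Below are the promoters of cytochrome c, the electron carrier, of *Uqcr11*, 1 of the 2 complex III genes low on every LIRKO array, of *Ndufa3*, the lowest of all subunits, and of *Atp5k*, whose promoter held letters of both NRF1 and ERR alpha. Each runs 5′ to 3′ along the strand of its gene, with the matched letters in capitals.
Cycs promoter, chr6:50566520-50566819, minus strand, NRF1: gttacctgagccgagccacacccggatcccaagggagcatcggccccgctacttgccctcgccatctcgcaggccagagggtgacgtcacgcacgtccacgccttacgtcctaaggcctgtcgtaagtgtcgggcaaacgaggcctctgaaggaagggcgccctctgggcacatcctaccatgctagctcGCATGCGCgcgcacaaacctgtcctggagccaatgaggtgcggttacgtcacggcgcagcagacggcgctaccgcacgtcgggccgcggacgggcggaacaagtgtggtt
Uqcr11 promoter, chr10:80406772-80407071, minus strand, GABPA then NRF1: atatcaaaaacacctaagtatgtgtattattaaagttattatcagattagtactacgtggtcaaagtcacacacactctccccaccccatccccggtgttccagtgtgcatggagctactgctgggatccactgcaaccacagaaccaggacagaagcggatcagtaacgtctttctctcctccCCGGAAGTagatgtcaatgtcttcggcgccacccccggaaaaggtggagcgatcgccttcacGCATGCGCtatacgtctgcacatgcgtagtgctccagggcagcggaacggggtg
Ndufa3 promoter, chr7:3617123-3617422, plus strand, YY1: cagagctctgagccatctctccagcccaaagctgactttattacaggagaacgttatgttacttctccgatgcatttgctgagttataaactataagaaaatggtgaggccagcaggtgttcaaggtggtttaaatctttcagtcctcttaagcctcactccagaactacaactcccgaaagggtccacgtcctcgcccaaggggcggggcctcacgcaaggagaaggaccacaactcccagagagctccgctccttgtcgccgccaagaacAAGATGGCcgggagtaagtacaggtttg
Atp5k promoter, chr5:108434350-108434649, minus strand, NRF1 on both strands then ERR alpha: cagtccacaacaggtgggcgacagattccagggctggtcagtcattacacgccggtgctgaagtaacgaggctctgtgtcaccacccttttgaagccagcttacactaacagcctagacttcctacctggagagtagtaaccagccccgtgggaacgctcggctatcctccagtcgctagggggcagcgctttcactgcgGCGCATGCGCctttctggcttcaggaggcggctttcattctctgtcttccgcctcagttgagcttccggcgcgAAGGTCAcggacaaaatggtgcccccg
The genes with and without the letters of NRF1 had median differences of 0.11 and 0.11 on LIRKO 1, -0.94 and -0.70 on LIRKO 2, and -0.86 and -0.70 on LIRKO 3. For YY1 the medians with and without were 0.14 and 0.10 on LIRKO 1, -0.54 and -0.77 on LIRKO 2, and -0.58 and -0.76 on LIRKO 3. On LIRKO 1 the groups thus differed by less than 0.05.

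The 29 subunits of complex I had a median log2 fold change of -0.43, from -1.54 to 0.13. At an unadjusted p under 0.05, 3 (10.3%) were lower and 0 were higher, against 13.5% and 7.43% of all probe sets. The medians by array were 0.07 on LIRKO 1, -0.87 on LIRKO 2 and -0.72 on LIRKO 3. After subtraction of the similar level they were 0.08, 0.01 and -0.11. On LIRKO 1, 21 of the 29 lay above the Flox mean and 12 above all Flox arrays. Flox 1, Flox 2 and Flox 3 lay above the mean of the other Flox arrays on 14, 10 and 23 of the 29. The count on LIRKO 1 was thus close to that of Flox 3 and above those of Flox 1 and Flox 2. Among probe sets of similar level 47.1% lay above the Flox mean on LIRKO 1. The medians of all 29 on Flox 1, Flox 2 and Flox 3 were -0.03, -0.05 and 0.06 after subtraction of the similar level.

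The lowest of all subunits was *Ndufa3*, an accessory subunit. It read 10.86, 10.77 and 10.85 in Flox and 10.82, 8.54 and 8.49 in LIRKO (log2 fold change -1.54 ± 0.60 SE, adjusted p = 0.237). LIRKO 1 lay within the Flox range and both other LIRKO arrays lay over 2 log2 units below it. This probe set carries the suffix that the maker gave to sets matching a sequence family, and a second probe set of the gene, much dimmer, differed from Flox by 0.00, -0.21 and -0.36.

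*Ndufs3*, a core subunit of the peripheral arm, read 10.56, 10.38 and 10.48 in Flox and 10.55, 8.60 and 9.09 in LIRKO (log2 fold change -1.06 ± 0.46 SE). *Ndufa9*, an accessory subunit, read 10.35, 10.39 and 10.36 in Flox and 10.53, 8.80 and 8.79 in LIRKO (-0.996 ± 0.454 SE). For both genes LIRKO 2 and LIRKO 3 lay below every Flox array and LIRKO 1 did not. *Ndufv3*, an accessory subunit of the flavoprotein part, had the smallest p of the 70 genes. It read 8.56, 8.35 and 8.47 in Flox and 8.20, 7.09 and 7.42 in LIRKO (log2 fold change -0.89 ± 0.27 SE, adjusted p = 0.237). Here all LIRKO arrays lay below all Flox arrays, and *Ndufv3* also had the most negative difference of its complex on LIRKO 1, of -0.26. It lay below probe sets of similar level by -0.25, -0.98 and -0.70. *Ndufa8*, an accessory subunit, read 9.22, 9.15 and 9.03 in Flox and 9.06, 8.12 and 7.90 in LIRKO (-0.77 ± 0.29 SE), with LIRKO 1 inside the Flox range.

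The largest positive difference of the complex on LIRKO 1 was that of *Ndufs1*, the largest core subunit. It read 9.03, 8.94 and 9.04 in Flox and 9.34, 8.14 and 8.52 in LIRKO, so that LIRKO 1 lay 0.34 above the Flox mean while the log2 fold change was -0.34 ± 0.29 SE. *Ndufa10*, *Ndufs4* and *Ndufa1*, all accessory subunits, had the most positive log2 fold changes, of 0.02, 0.07 and 0.13, each smaller than its SE. All 3 were dimmer than most of the complex, with Flox means of 7.50, 5.76 and 6.62. A second and dimmer probe set of *Ndufa1* had a log2 fold change of -0.82.

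Complex II was higher than every Flox array on LIRKO 1 for all 4 of its genes. The medians of the complex were 0.20 on LIRKO 1, -1.25 on LIRKO 2 and -0.98 on LIRKO 3, and 0.21, -0.15 and 0.05 after subtraction of the similar level. Its median log2 fold change was -0.68, with 0 of 4 past an unadjusted p under 0.05. *Sdhb*, the iron-sulfur subunit, read 10.49, 10.32 and 10.46 in Flox and 10.86, 9.09 and 9.04 in LIRKO (log2 fold change -0.76 ± 0.47 SE, adjusted p = 0.337). Its difference of 0.44 on LIRKO 1 was the largest of the 70 subunits. *Sdhd*, a membrane anchor, read 10.49, 10.61 and 10.62 in Flox and 10.81, 9.22 and 9.61 in LIRKO. *Sdhc*, the other anchor, read 10.90, 10.88 and 10.92 in Flox and 11.05, 9.72 and 9.90 in LIRKO. On these genes, as on *Sdhb*, LIRKO 1 lay above and the other LIRKO arrays below the whole Flox range. *Sdha*, the flavoprotein that oxidises succinate, differed least. It read 8.76, 8.60 and 8.82 in Flox and 8.90, 8.12 and 8.47 in LIRKO (-0.23 ± 0.21 SE).

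Complex III was low on LIRKO 2 and LIRKO 3 for all 8 genes and high on LIRKO 1 for 6 of them, which lay above every Flox array. The medians were 0.19, -1.10 and -1.08 by array, and 0.18, 0.10 and -0.11 after subtraction of the similar level. The median log2 fold change was -0.64, and 2 of 8 (25%) were lower at an unadjusted p under 0.05, against 13.5% of all probe sets. *Uqcrb*, a small subunit near the ubiquinone site, read 10.18, 10.26 and 10.31 in Flox and 10.48, 8.08 and 8.64 in LIRKO (log2 fold change -1.18 ± 0.56 SE, adjusted p = 0.256). It lay 0.22 above probe sets of similar level on LIRKO 1 and -1.12 and -0.72 from them on the other LIRKO arrays.

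The 2 genes that passed the unadjusted threshold were *Uqcrq* and *Uqcr11*, small subunits, and on both all LIRKO arrays lay below all Flox arrays. *Uqcrq* read 12.38, 12.55 and 12.46 in Flox and 12.34, 10.99 and 11.31 in LIRKO (log2 fold change -0.91 ± 0.33 SE, adjusted p = 0.237). *Uqcr11* read 10.52, 10.36 and 10.40 in Flox and 10.30, 9.34 and 9.21 in LIRKO (-0.81 ± 0.28 SE, adjusted p = 0.237). *Uqcr11* lay -0.12, 0.04 and -0.33 from probe sets of similar level, and *Uqcrq* lay -0.13, -0.02 and -0.10 from them.

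*Uqcrc1*, *Uqcrc2* and *Cyc1* had a common order on the probe sets used, with LIRKO 1 highest and the Flox arrays in the middle. *Uqcrc1*, a core protein, read 10.84, 10.88 and 10.74 in Flox and 11.01, 9.83 and 9.98 in LIRKO. *Uqcrc2*, the other core protein, read 9.54, 9.43 and 9.72 in Flox and 9.95, 8.84 and 8.92 in LIRKO. *Cyc1*, the cytochrome that hands electrons to cytochrome c, read 11.88, 12.003 and 11.93 in Flox and 12.07, 10.83 and 11.34 in LIRKO. Their log2 fold changes were -0.54, -0.33 and -0.53, yet *Cyc1* lay above probe sets of similar level on each LIRKO array, by 0.12, 0.44 and 0.74. A second bright probe set of *Cyc1*, of the suffix _r_at described with complex IV, did not show this order and differed from Flox by 0.13, -0.16 and 0.12. *Uqcr10* and the hinge protein *Uqcrh* had the same order, with log2 fold changes of -0.74 and -0.50 and LIRKO 1 at 0.30 and 0.20 above the Flox mean. Cyclic loess turned the log2 fold changes of *Uqcrc1*, *Uqcrc2*, *Cyc1* and *Uqcrh* to 0.12, 0.14, 0.32 and 0.08.

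*Cycs*, the electron carrier between complexes III and IV, read 7.85, 7.49 and 7.97 in Flox and 7.91, 7.14 and 7.11 in LIRKO (log2 fold change -0.38 ± 0.25 SE, adjusted p = 0.356). LIRKO 1 lay within the Flox range. Both other LIRKO arrays lay below it, and -0.45 and -0.53 from probe sets of similar level. Its log2 fold change stayed negative under cyclic loess, at -0.30.

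**Figure D3:**
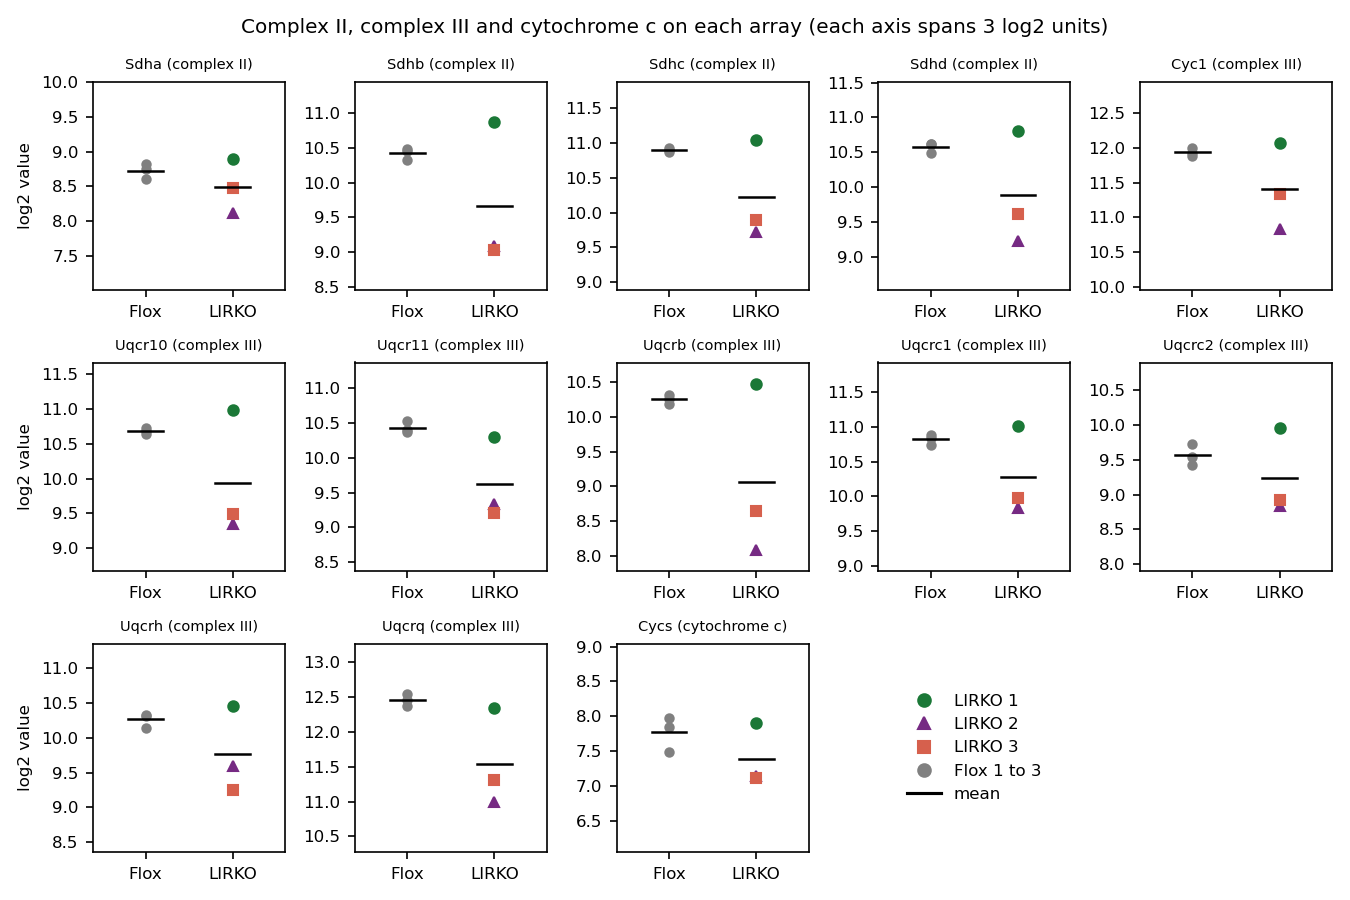
Each panel is a gene of complex II, complex III or cytochrome c, with log2 values on the y axis, the 3 Flox arrays in grey, the LIRKO arrays in colour and group means as bars. LIRKO 1 lies above all Flox arrays in 10 of the 13 panels, and LIRKO 2 and LIRKO 3 lie below all of them in every panel.

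Complex IV was the most mixed. Its median log2 fold change was -0.01, from -1.09 to 0.79, and 0 of its 14 genes passed an unadjusted p under 0.05. Its genes included forms of muscle and testis, and its probe sets were dimmer than those of the other complexes. The median Flox level was 7.86, against 9.76, 10.50, 10.55 and 10.11 in complexes I, II, III and V. Its median is thus not one of equally bright genes. The medians by array were 0.05, 0.13 and -0.09, and 0.08, 0.38 and 0.14 after subtraction of the similar level. The sign of the median log2 fold change depended on scaling, since it was 0.06 with quantile normalization and 0.08 with cyclic loess.

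The lowest gene of complex IV was *Cox6a1*, the isoform that most tissues use. It read 11.79, 11.76 and 11.72 in Flox and 11.93, 9.97 and 10.10 in LIRKO (log2 fold change -1.09 ± 0.49 SE, adjusted p = 0.248). *Cox6c* and *Cox5b*, present in all tissues, had log2 fold changes of -0.66 ± 0.35 and -0.66 ± 0.31 SE. On the probe sets used for these 3 genes LIRKO 1 lay above every Flox array and the other LIRKO arrays lay below every Flox array. The dimmer probe sets of *Cox6c* did not follow, since they differed from Flox by -0.57, -0.71 and -0.63 and by -0.30, 0.29 and -0.08. *Cox7a2*, the isoform of liver, had the largest positive difference of the complex on LIRKO 1. It read 10.70, 10.63 and 10.91 in Flox and 11.14, 10.19 and 10.19 in LIRKO, so that LIRKO 1 lay 0.39 above the Flox mean, and it lay above probe sets of similar level on each LIRKO array, by 0.40, 0.79 and 0.57. The probe sets of *Cox4i1*, a subunit made in all tissues, did not share a sign. The brighter read 7.74, 7.91 and 7.43 in Flox and 7.35, 8.15 and 7.52 in LIRKO (-0.02 ± 0.24 SE), and the other had a log2 fold change of -0.63.

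The genes with the most positive log2 fold changes of complex IV included isoforms of striated muscle. *Cox8b*, the muscle form of its subunit, read 8.09, 8.12 and 7.67 in Flox and 7.76, 9.27 and 8.75 in LIRKO (log2 fold change 0.63 ± 0.37 SE, adjusted p = 0.314). *Cox7a1*, another muscle form, read 3.96, 3.95 and 3.99 in Flox and 3.97, 4.62 and 4.36 in LIRKO (0.35 ± 0.18 SE, adjusted p = 0.271). *Cox7a1* was thus dim, and it lay 0.04, 0.42 and 0.25 above probe sets of similar level on LIRKO 1, LIRKO 2 and LIRKO 3. *Cox6a2*, also a muscle form, had a log2 fold change of 0.05 ± 0.12 SE. *Cox8b* and *Cox7a1* were high on LIRKO 2 and LIRKO 3 and not on LIRKO 1. The *Cox8b* values are those of a probe set of the suffix _r_at, described below with the other probe set of the gene. The 6 striated muscle markers showed the same arrays high, with medians of 0.10, 1.21 and 0.62 above Flox on LIRKO 1, LIRKO 2 and LIRKO 3. Of these 6, 3 were higher at an unadjusted p under 0.05, against 7.43% of all probe sets. The mean log2 level of the 6 markers ranged from 5.92 to 6.11 in Flox and from 6.25 to 7.24 in LIRKO. The highest, *Myh4*, a fast myosin heavy chain, lay 0.13, 1.82 and 1.49 above the Flox mean. What muscle RNA contributed to these genes was not tested. *Cox8a*, the form used in most tissues, was dim at a Flox mean of 4.32 and had a log2 fold change of 0.05 ± 0.12 SE.

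The highest of all 70 subunits was *Cox6b1*, which lines the face of the enzyme that cytochrome c binds. It read 7.19, 7.34 and 7.24 in Flox and 7.21, 8.48 and 8.45 in LIRKO (log2 fold change 0.79 ± 0.34 SE, adjusted p = 0.240). *Cox6b2*, its testis form, had the most negative difference of all subunits on LIRKO 1, of -0.54. It read 7.68, 7.94 and 7.67 in Flox and 7.22, 7.98 and 7.71 in LIRKO (-0.13 ± 0.21 SE), and its other probe sets lay 0.81 and 0.67 above Flox on LIRKO 1. *Cox6b1*, *Cox6b2* and *Cox8b* were each read by a probe set of the suffix _r_at, which marks sets chosen with some design rules dropped, as were *Ndufb2* and *Atp5g1*. All 901 probe sets of this suffix had medians of -0.02, 0.37 and 0.35 above probe sets of similar level on LIRKO 1, LIRKO 2 and LIRKO 3, and the 9614 with no such mark had medians of 0.00, -0.03 and -0.02. The 5 subunits of this suffix had medians of -0.05, 1.31 and 0.995. The other probe set of *Cox8b* differed from Flox by -0.05, 0.11 and -0.31.

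**Figure D4:**
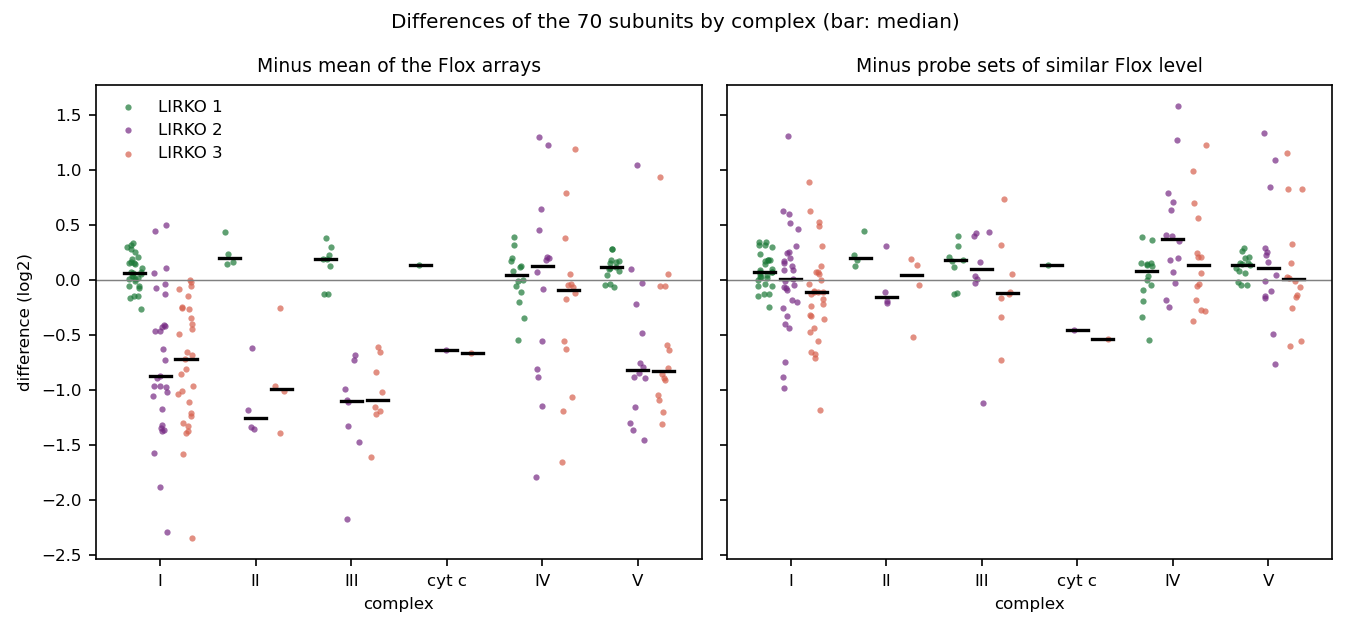
Each point is a subunit on 1 LIRKO array (green LIRKO 1, purple LIRKO 2, orange LIRKO 3) and bars are medians, with the log2 difference from the Flox mean at left and the same after subtraction of probe sets of similar Flox level at right. At left the medians of LIRKO 2 run from -1.25 in complex II to 0.13 in complex IV, and at right they run from -0.15 to 0.38 for the complexes.

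Complex V had a median log2 fold change of -0.51, from -0.87 to 0.73. At an unadjusted p under 0.05, 2 of 14 (14.3%) were lower and 1 was higher, against 13.5% and 7.43% of all probe sets. The medians by array were 0.12, -0.81 and -0.83, and 0.14, 0.11 and 0.01 after subtraction of the similar level. On LIRKO 1, 11 genes lay above the Flox mean and 9 above all Flox arrays. The lowest was *Atp5md*, a small membrane subunit. It read 11.63, 11.50 and 11.65 in Flox and 11.64, 10.23 and 10.29 in LIRKO (log2 fold change -0.87 ± 0.37 SE, adjusted p = 0.239), with LIRKO 1 inside the Flox range.

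*Atp5a1*, the alpha subunit, read 11.86, 11.58 and 11.81 in Flox and 11.92, 10.46 and 10.71 in LIRKO (-0.73 ± 0.37 SE). *Atp5c1*, the gamma subunit of the rotor, read 10.96, 10.77 and 11.07 in Flox and 11.11, 9.48 and 9.73 in LIRKO (-0.83 ± 0.41 SE), and its other probe set had a log2 fold change of -0.16. On both, LIRKO 1 lay just above the Flox range and the other LIRKO arrays lay below it. From probe sets of similar level, *Atp5a1* lay 0.16, 0.26 and 0.33 and *Atp5c1* lay 0.16, 0.05 and -0.0028 on LIRKO 1, LIRKO 2 and LIRKO 3. *Atp5k*, the e subunit, had the largest positive difference of its complex on LIRKO 1, of 0.29. It read 6.92, 6.80 and 7.10 in Flox and 7.23, 6.19 and 6.35 in LIRKO (-0.35 ± 0.28 SE). *Atp5pb* and *Atp5j2*, membrane subunits, had log2 fold changes of 0.01 and 0.09, each smaller than its SE.

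The genes for the c ring, *Atp5g1* and *Atp5g2*, encode the same mature protein and differed in sign. *Atp5g2* read 8.31, 8.50 and 8.38 in Flox and 8.34, 7.51 and 7.51 in LIRKO (log2 fold change -0.61 ± 0.24 SE, adjusted p = 0.237). *Atp5g1* read 7.84, 8.18 and 8.05 in Flox and 8.21, 9.07 and 8.96 in LIRKO (0.73 ± 0.24 SE, adjusted p = 0.237). *Atp5g1* was the only subunit with all LIRKO arrays above all Flox arrays, on a probe set of the suffix _r_at, and its other probe set differed from Flox by -0.14, 0.25 and 0.07. The other probe set of *Atp5g2* had a log2 fold change of -0.06. *Atp5g2* also had the most negative difference of its complex on LIRKO 1, of -0.06.

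Several probe sets read 19 of the 70 genes, and in 9 of these their log2 fold changes did not share a sign. A further 10 probe sets list a subunit together with another gene and were not assigned to either. With all probe sets of a gene averaged, 0 subunits were called as well.

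Other mitochondrial genes were read from lists chosen for their roles, and 0 genes of any list were called by limma at an adjusted p under 0.05 or by the methods' t-test. For the counts below at an unadjusted p under 0.05, the shares over all probe sets were 13.5% lower and 7.43% higher. The 16 measured assembly factors of the respiratory chain, of 36 listed, had a median log2 fold change of -0.28, with 3 lower and 0 higher at an unadjusted p under 0.05, and a median of -0.01 on LIRKO 1. *Ndufaf1* and *Uqcc2*, needed to build complexes I and III, had log2 fold changes of -0.68 ± 0.22 and -0.47 ± 0.16 SE (adjusted p = 0.237 for both), and both were low on every LIRKO array. The 12 regulators of respiratory chain genes, of 19, had a median of 0.00, with 1 lower and 2 higher at the unadjusted threshold. On LIRKO 1 their median was 0.16, with 9 of 12 above the Flox mean, and it was 0.18 after subtraction of the similar level. Differences between lists were not tested. *Ppargc1a*, the coactivator that drives mitochondrial gene programmes, lay 0.34, 0.41 and 0.63 above Flox (log2 fold change 0.46 ± 0.12 SE, adjusted p = 0.237), at a dim Flox mean of 4.04. *Ppara*, the nuclear receptor of fatty acid oxidation, lay -0.80, -0.99 and -0.98 from Flox (-0.93 ± 0.16 SE, adjusted p = 0.223). On both genes every LIRKO array lay on the same side of the Flox mean.

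The 16 genes of pyruvate dehydrogenase and the citric acid cycle, of 18, had a median of 0.26 on LIRKO 1, where 13 lay above the Flox mean and 11 above all Flox arrays, and medians of -0.78 and -0.53 on LIRKO 2 and LIRKO 3. Their median log2 fold change was -0.32, with 0 past the unadjusted threshold. *Pdhb* and *Cs*, which encode a pyruvate dehydrogenase subunit and citrate synthase, had the smallest p, with log2 fold changes of -0.95 ± 0.43 and -0.47 ± 0.20 SE. The 11 other genes that supply or make ubiquinone, of 14, had a median log2 fold change of -0.69 and a median of -0.06 on LIRKO 1. At the unadjusted threshold 6 (54.5%) were lower and 1 was higher, against 13.5% and 7.43% of all probe sets. This list mixes donors of electrons with genes of ubiquinone synthesis, and its differences on LIRKO 1 ran from -0.40 for *Coq3* to 0.61 for *Sqor*, the sulfide oxidase, named here for that value. *Coq3* and *Coq7*, enzymes of ubiquinone synthesis, were low on every LIRKO array, with log2 fold changes of -0.86 ± 0.20 and -1.09 ± 0.34 SE (adjusted p = 0.237 for both).

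Of the 61 genes of the mitochondrial ribosome, 21 (34.4%) were lower and 2 were higher at the unadjusted threshold. Over all probe sets 13.5% were lower and 7.43% higher. The median log2 fold change of these 61 genes was -0.46, with medians of -0.01, -0.65 and -0.68 by array. Subtraction of the similar level left 0.02, -0.46 and -0.51, where the subunits of oxidative phosphorylation had 0.13, 0.09 and -0.06. *Mrpl43* and *Mrps10*, ribosomal proteins, had log2 fold changes of -0.88 ± 0.23 and -0.76 ± 0.21 SE (adjusted p = 0.237 for both). The 17 genes of protein import had a median of -0.34, with 6 (35.3%) lower and 0 higher. *Timm10b* and *Timm9*, chaperones of the space between the membranes, had log2 fold changes of -0.57 ± 0.14 and -0.50 ± 0.16 SE. The 12 carriers and pores, of 15, had a median of -0.12, with 2 lower and 1 higher. Among them *Slc25a4*, the ATP and ADP exchanger that muscle uses, lay 0.995, 0.69 and 0.47 above Flox (0.72 ± 0.17 SE, adjusted p = 0.237), and *Slc25a10*, the dicarboxylate carrier, had a log2 fold change of -0.74 ± 0.22 SE.

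**Figure D5:**
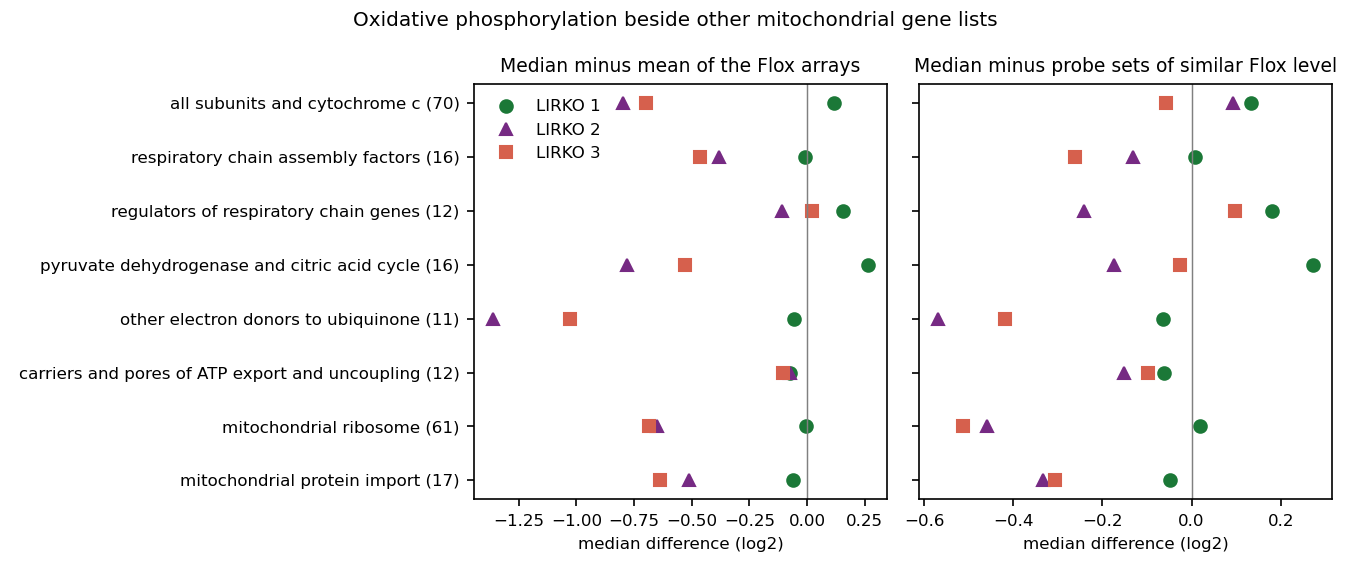
Symbols give the median of each gene list (number of genes in brackets) on LIRKO 1 (green circles), LIRKO 2 (purple triangles) and LIRKO 3 (orange squares), as the log2 difference from the Flox mean at left and after subtraction of probe sets of similar Flox level at right. On LIRKO 1 the subunits lie at 0.12 and the citric acid cycle at 0.26, while the mitochondrial ribosome lies at -0.01.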

How the data were processed

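Liver RNA of LIRKO and Flox mice was hybridised to Affymetrix MG_U74Av2 arrays, 3 a group, with 2 to 3 mice pooled on each. The authors deposited log2 values computed with RMA, which corrects background, quantile-normalizes and summarises the probes of a set. Which arrays were normalized together and the version of RMA are not given in the sources used here. Of 12488 probe sets, control sets were left out and 12422 were tested with limma 3.58.1 (lmFit and eBayes, R 4.3.3) over the 6 arrays, with Benjamini-Hochberg adjustment over all of them and a threshold of 0.05, as in the study's methods. The fit was checked on simulated data, drawn with the spread of the Flox arrays and with the same change on every LIRKO array. That check did not cover LIRKO arrays that differ from each other, as they do here. Whether the samples vary biologically or technically beyond the pools is not known, so p-values measure the spread between these arrays. The number of arrays limits the precision.

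Genes were named from GEO's platform annotation, where 10833 probe sets have 1 symbol, 396 several and 1193 none. Probe sets of similar level were those within 0.25 log2 of a subunit's Flox mean. Members and lists were chosen with earlier results of these data known. The text names every called subunit, all of complexes II and III and cytochrome c, of complex IV the measured isoforms among *Cox4i1* and *Cox4i2*, *Cox6a1* and *Cox6a2*, *Cox7a1* and *Cox7a2*, and *Cox8a* and *Cox8b*, in complexes I, IV and V the 3 lowest and 3 highest log2 fold changes and the 2 smallest p, the extremes of each complex on LIRKO 1, and the 2 smallest p of each list. Alternatives covered scaling, a filter on dim probe sets, the variance model, the test, the replicate number as a block, left-out arrays, the probe set chosen and the meaning of a similar level. Promoters came from RefSeq on GRCm38.p6. Other tools were Python 3.11.15, numpy 2.4.6, pandas 2.3.3 and matplotlib 3.10.9.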

Additional observations from a re-analysis of the deposited data

How the results depend on the processing

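The count of called subunits was 0 under every alternative except leaving out LIRKO 1, where leaving out each array in turn gave 0 to 54. The count of called probe sets, 16 as reported, was 40 with cyclic loess, 0 with the methods' t-test, 90 with LIRKO 2 and LIRKO 3 left out, and 2 (without LIRKO 2) to 6095 (without LIRKO 1) with each array left out in turn. Without Flox 1, Flox 2, Flox 3 or LIRKO 3 it was 5, 3, 3 and 3. With LIRKO 2 and LIRKO 3 left out, which leaves a lone LIRKO array assumed to vary like the Flox arrays, the median log2 fold change was 0.12 over all subunits, 0.20 in complex II, 0.19 in complex III, 0.14 for cytochrome c and 0.12 in complex V, and after subtraction of the similar level it was 0.13 over all, 0.14 for cytochrome c and 0.14 in complex V. The median of complex IV was -0.13 without dim probe sets. Other medians moved by less than the spread between arrays, which LIRKO 1 widened, and cyclic loess turned the sign in complexes III and IV. The replicate number as a block gave 11 called probe sets and 0 called subunits. Deviations of same-numbered arrays correlated at 0.32, 0.40 and 0.09, and not every array correlated best with its own number. *Ndufa4* had no probe set of its own, so counting it in complex IV was not run.

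With LIRKO 2 and LIRKO 3 left out, the log2 fold changes of these genes changed sign: *Cox6a2* to -0.0087, *Cox6b1* to -0.050, *Ndufa1* to -0.052, *Cox8b* to -0.20, *Atp5md* to 0.050, *Ndufs3* to 0.079, *Cox5b* to 0.088, *Cyc1* to 0.13, *Cycs* to 0.14, *Sdhc* to 0.15, *Ndufa9* to 0.16, *Atp5a1*, *Sdha*, *Atp5c1* and *Cox6a1* to 0.17, *Uqcrc1* to 0.19, *Uqcrh* to 0.20, *Cox6c* to 0.20, *Uqcrb* to 0.23, *Sdhd* to 0.24, *Atp5k* to 0.29, *Uqcr10* to 0.30, *Ndufs1* to 0.34, *Uqcrc2* to 0.39, *Cox7a2* to 0.39 and *Sdhb* to 0.44. Cyclic loess changed the sign of *Ndufs4* (-0.00082), *Atp5pb* (-0.051), *Cox8a* (-0.052), *Ndufs1* (0.0018), *Sdha* (0.050), *Cox6c* (0.054), *Atp5a1* (0.072), *Cox4i1* (0.081), *Uqcrh* (0.084), *Uqcrc1* (0.12), *Uqcrc2* (0.14), *Cyc1* (0.32) and *Cox7a2* (0.44). Quantile normalization did so for *Atp5pb* (-0.037), *Cox8a* (-0.066), *Uqcrc1* (0.026), *Cox4i1* (0.11), *Cyc1* (0.13) and *Cox7a2* (0.35), median centring for *Atp5pb* (-0.0047), and averaging the probe sets of each gene for *Ndufa1* (-0.34) and *Cox6b2* (0.19). Leaving out each array in turn gave log2 fold changes of both signs for *Ndufa10* (-0.0090 to 0.052), *Ndufa1* (-0.052 to 0.26), *Cox6b2* (-0.30 to 0.079), *Cox4i1* (-0.26 to 0.14), *Cox8a* (-0.023 to 0.11), *Cox6a2* (-0.024 to 0.099) and *Atp5pb* (-0.036 to 0.039). The causes of these changes were not tested.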

Other observations

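Markers of other liver cell types were measured beside the subunits, as medians of the log2 difference from the Flox mean on LIRKO 1, LIRKO 2 and LIRKO 3. The 6 Kupffer cell and macrophage markers had 0.33, -0.48 and -0.07, and Flox 1 lay -0.66 from the other Flox arrays on these genes. The 4 endothelial markers had 0.09, 0.19 and 0.14. The 4 stellate cell and fibroblast markers had -0.20, 0.25 and 0.25, and the 3 bile duct markers had -0.12, 0.21 and -0.13. The 4 lymphocyte markers had 0.04, 0.29 and 0.46, the 4 neutrophil markers had -0.06, -0.11 and -0.18, and the 4 adipocyte markers had 0.06, 0.05 and 0.05. The 2 erythroid markers were bright in Flox, at a median of 10.90, and had -0.45, -2.01 and -1.56. The 6 hepatocyte markers had 0.09, -0.65 and -0.95. None of these markers passed limma's adjusted threshold. At an unadjusted p under 0.05, 3 striated muscle markers were higher, and 1 hepatocyte, 1 erythroid and 1 stellate cell marker were lower. Over all probe sets 7.43% were higher and 13.5% lower at that threshold.

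*Cox7a2l*, set apart as no subunit, lay 0.18, -0.68 and -0.52 from Flox on LIRKO 1, LIRKO 2 and LIRKO 3.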
